A study of Sus scrofa with 36 samples.

Results

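The meninges wrap the cerebellum in layers of connective tissue, and their fibroblasts build a matrix of fibrillar collagen, small proteoglycans and fibulins. The genes described here are 10 genes of these fibroblasts, taken by name from a list and matched by symbol to 10 of the 31907 Ensembl pig gene identifiers in the count tables. They were the collagen chains COL1A1, COL1A2, COL3A1 and COL6A3, the matrix proteins DCN, LUM and FBLN1, and the transporter SLC6A13, the transcription factor FOXC1 and the enzyme ALDH1A2. The question was how much of this tissue each cerebellar library carried and whether the amount followed the diet or the birth weight of the piglet.

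Cerebellar RNA of 36 piglets (Danish landrace × Yorkshire × Duroc) was sequenced, with 9 piglets in each cell of a 2 × 2 design. From 3 days of age and for 3 weeks the piglets received formula whose fat came from vegetable oil (VEG) or from bovine milk (MILK), and each piglet was of normal birth weight (NBW, NORM in the labels) or growth restricted in the womb (IUGR). VEG-NBW, VEG-IUGR and MILK-IUGR each held 5 females and 4 males, and MILK-NBW held 3 females and 6 males. The piglets came from several litters, which the labels do not give, so piglets of 1 litter cannot be told apart from other piglets. All groups were fed formula, and the tissue was crushed cerebellum, in which fewer cells of a type and less RNA per cell cannot be told apart. Whether a part or the whole of the cerebellum was taken is not given in the sources used here.

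The study left out 1 library each of VEG-NBW, VEG-IUGR and MILK-NBW for low RNA integrity without naming them. From each of these groups, the library in which most reads fell outside annotated genes was left out here. These were piglet 202 (VEG-NBW, 43.6% not assigned), piglet 210 (VEG-IUGR, 64.3%) and piglet 213 (MILK-NBW, 31.5%), against 26.7% to 30.5% in the other 33 libraries. The 33 libraries held between 15516541 and 23027502 counts on genes. In the left-out libraries the 10 genes together had few counts, with 3595 for piglet 202, 1748 for piglet 210 and 6070 for piglet 213. The 33 libraries had 6974 to 21768. As a share of all counts on genes, these were 0.0254%, 0.0220% and 0.0358%, against 0.0400% to 0.131% in the 33 libraries. The genes were not each low. With all 36 libraries, FBLN1 in piglet 210 was the highest of VEG-IUGR, at 48.7 CPM. CPM is the count of a gene relative to the library size, scaled by TMM. In piglet 210, COL3A1, COL6A3, SLC6A13, FOXC1 and ALDH1A2 had a count of 0 (a count of 0 allows up to 3 counts of 7936202), while DCN had 233 counts. Markers of the cerebellum were present in all 33 libraries. There, 10 granule neuron markers summed to between 4256 and 7125 CPM and 9 Purkinje cell markers to between 2690 and 5506 CPM.

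As background, collagen I is a triple helix of COL1A1 and COL1A2 chains, collagen III is made of COL3A1 chains alone, and COL6A3 is a chain of the beaded collagen VI filaments around cells. Decorin (DCN) and lumican (LUM) are small leucine-rich proteoglycans that bind collagen fibrils, and fibulin 1 (FBLN1) joins the matrix and basement membranes. SLC6A13 (GAT2) carries GABA and taurine in the leptomeninges, FOXC1 is a forkhead factor needed for the meninges to form over the cerebellum, and ALDH1A2 makes retinoic acid from retinaldehyde. Fibroblasts along blood vessels and in the stroma of the choroid plexus share much of this list, so the genes mark fibroblasts of the coverings and vessels together.

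On the genome build that the labels name, Sscrofa11.1, RefSeq places COL1A1 (ENSSSCG00000036135) on chr12:26379087-26397180, COL1A2 (ENSSSCG00000015326) on chr9:74174484-74210407, COL3A1 (ENSSSCG00000016034) on chr15:93556914-93595678 and COL6A3 (ENSSSCG00000027331) on chr15:137011549-137103687. DCN (ENSSSCG00000000915, chr5:91678601-91713925) and LUM (ENSSSCG00000000916, chr5:91748871-91756381) are close neighbours on chromosome 5, which also carries FBLN1 (ENSSSCG00000000010, chr5:3839498-3927178) and SLC6A13 (ENSSSCG00000030076, chr5:67574149-67617513). FOXC1 (ENSSSCG00000039756) lies on chr7:837088-840593 and ALDH1A2 (ENSSSCG00000025578) on chr1:113932722-114037059. Reads were counted per gene, without a setting for strand given in the sources used here. Reads of a gene on the opposite strand thus cannot be told apart from those of a member.

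All 33 retained libraries had counts on each of the 10 genes, and the amount differed between piglets of the same group by more than the group means differed. The summed level of the 10 genes had a mean of 731 ± 208 CPM (SD, n = 33) and ran from 415 CPM in piglet 217 (VEG-IUGR) to 1326 CPM in piglet 234 (MILK-NBW), a 3.19-fold range. As a share of all counts on genes, the lowest library, piglet 207 (MILK-IUGR), had 0.0400% (95% Wilson interval 0.0390% to 0.0409%) and piglet 234 had 0.131% (0.129% to 0.133%). These intervals cover counting error only, and the largest was 0.00348 percentage points wide, narrower than the distance between these libraries.

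By group, the summed level was 735 ± 210 CPM in VEG-NBW (SD, n = 8), 732 ± 196 CPM in VEG-IUGR (SD, n = 8), 795 ± 247 CPM in MILK-NBW (SD, n = 8) and 669 ± 198 CPM in MILK-IUGR (SD, n = 9). VEG-NBW ran from 495 to 1146 CPM with a median of 744 CPM, and VEG-IUGR from 415 to 960 CPM with a median of 798 CPM. MILK-NBW ran from 552 to 1326 CPM with a median of 764 CPM, and MILK-IUGR from 423 to 1085 CPM with a median of 639 CPM. MILK-NBW was thus highest and MILK-IUGR lowest by mean, but all 4 groups overlapped and neighbours in that order differed by less than 1 SD. With all 36 libraries the means were 682 CPM in VEG-NBW, 673 CPM in VEG-IUGR, 746 CPM in MILK-NBW and 667 CPM in MILK-IUGR (n = 9 each). Piglets 216 (VEG-NBW), 234 (MILK-NBW) and 214 (MILK-IUGR) had the highest sum of their groups, and without them, a choice made after seeing the data, the means were 676, 719 and 617 CPM for these groups. VEG-IUGR, which lost no library in this setting, was then the highest at 732 CPM, and MILK-IUGR was still the lowest.

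**Figure D1:**
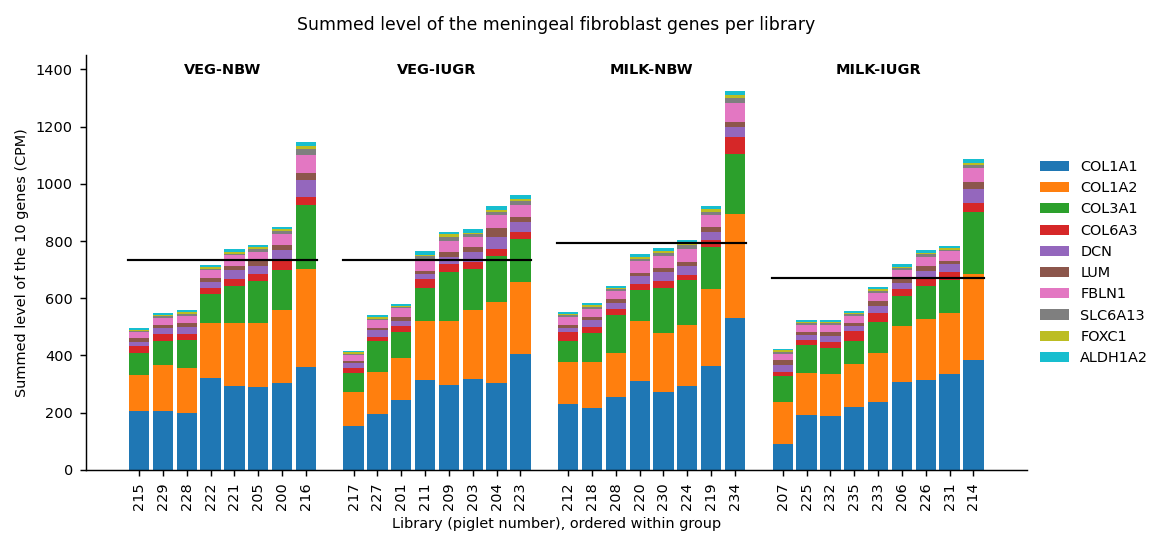
Summed level of the 10 genes in each of the 33 libraries (y axis, CPM; x axis, piglet number, ordered within its group), with the part of each gene in a colour and a black line for the group mean. The group means lie between 669 and 795 CPM, while single libraries run from 415 to 1326 CPM.

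The 3 fibrillar collagen chains made up most of the sum. COL1A1 took a median of 37.2% of it, COL1A2 27.5% and COL3A1 16.8%, followed by FBLN1 at 4.62% and DCN at 3.64%. FOXC1, the smallest, took 0.833%. These shares follow transcript length as well as abundance, because the counts are not scaled by length. Leaving the 3 fibrillar chains out, the other 7 genes summed to 128 ± 42.6 CPM in VEG-NBW, 126 ± 32.7 CPM in VEG-IUGR, 135 ± 39.8 CPM in MILK-NBW and 116 ± 28.5 CPM in MILK-IUGR, in the same order.

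A few libraries were high or low for most of the genes. Piglet 234 was among the 5 highest of the 33 libraries for 10 of the 10 genes, piglet 216 for 9 and piglet 214 for 7, and none of these 3 was below the median for any of the genes. At the other end, piglet 217 (VEG-IUGR) was among the 5 lowest for 8 genes and piglet 215 (VEG-NBW) for 7, and piglets 207 and 225 (both MILK-IUGR) for 5 each. Other libraries changed rank from gene to gene, such as piglet 235 (MILK-IUGR), which ran from rank 1 to rank 31 of 33, and piglet 212 (MILK-NBW), from rank 2 to rank 28 (rank 1 is the lowest level).

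Among the fibrillar collagens, COL1A1 had a level of 277 ± 83.3 CPM (SD, n = 33). Its lowest, median and highest levels were 200, 291 and 361 CPM in VEG-NBW, 152, 301 and 404 CPM in VEG-IUGR, 215, 282 and 530 CPM in MILK-NBW, and 91.6, 237 and 386 CPM in MILK-IUGR. The groups overlapped over most of their range, and the lowest value, 91.6 CPM, belonged to piglet 207. Fitted with birth weight and sex, MILK differed from VEG by 0.01 on the log2 scale (SE 0.15) and IUGR from NBW by -0.12 (SE 0.15), both smaller than the standard error.

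COL1A2, the partner chain, had a level of 203 ± 60.4 CPM (SD, n = 33) with a range of 118 to 364 CPM, and COL3A1 of 125 ± 40.3 CPM with a range of 67.0 to 223 CPM. The IUGR minus NBW difference was -0.11 for COL1A2 (SE 0.14) and -0.10 for COL3A1 (SE 0.15) on the log2 scale, and the MILK minus VEG difference was -0.04 (SE 0.14) and -0.02 (SE 0.15). Each of these was smaller than its standard error.

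The balance of the 2 collagen I chains set 1 library apart. The ratio of COL1A1 to COL1A2 counts ran from 1.05 to 1.67 with a median of 1.35 in 32 libraries, and it was 0.631 in piglet 207 (MILK-IUGR), where 1509 counts fell on COL1A1 and 2390 on COL1A2. The left-out libraries 202 and 210 had ratios of 0.300 and 0.587, and piglet 213 had 1.27. Piglet 207 had 27.4% of reads not assigned and 19003 genes with a count, within the range of the other libraries in the 33 (18635 to 19682 genes), and its ratio of COL3A1 to COL1A2 counts was 0.630, within the range of 0.493 to 0.845 in the 33 libraries. Piglet 207 also had the lowest COL6A3 level of the 33 libraries, 13.7 CPM. With all 36 libraries, COL6A3 was 9.24 CPM in piglet 202, 0 in piglet 210 and 15.6 CPM in piglet 213, each the lowest of its group. The part of RNA integrity in the low COL1A1 and COL6A3 levels of piglet 207 was not tested. Without piglet 207, the MILK-IUGR level of COL1A1 went from 252 ± 91.2 CPM (SD, n = 9) to 272 ± 73.5 CPM (SD, n = 8), and the difference from MILK-NBW went from -0.28 (SE 0.21) to -0.18 (SE 0.19) on the log2 scale.

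COL6A3 had a level of 25.2 ± 8.21 CPM (SD, n = 33). Its lowest, median and highest levels were 19.9, 23.5 and 36.9 CPM in VEG-NBW, 15.3, 23.8 and 28.6 CPM in VEG-IUGR, 19.7, 22.8 and 61.2 CPM in MILK-NBW, and 13.7, 24.8 and 34.0 CPM in MILK-IUGR. The medians lay within 2 CPM of each other, and 1 library, piglet 234, carried the top of the range. The MILK-NBW against VEG-NBW difference was 0.15 (SE 0.20, log2) with piglet 234 and -0.11 (SE 0.16) without it. Of the chains that join COL6A3 in collagen VI, COL6A1 had levels of 28.7 to 70.6 CPM, and COL6A2 had no count in any of the 33 libraries under the identifier matched to it (these 2 chains were chosen after their values were seen).

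Among the matrix proteins, DCN had a level of 27.4 ± 9.38 CPM (range 15.2 to 58.6 CPM, n = 33), LUM of 15.0 ± 5.09 CPM (range 7.09 to 32.5 CPM) and FBLN1 of 34.3 ± 10.9 CPM (range 20.6 to 64.0 CPM). Group medians of LUM were 14.7 CPM in VEG-NBW, 14.7 CPM in VEG-IUGR, 13.9 CPM in MILK-NBW and 15.7 CPM in MILK-IUGR. FBLN1 had group medians of 30.0, 37.0, 41.5 and 29.5 CPM in the same order, with ranges that overlapped. DCN and LUM were the genes with a positive fitted interaction (0.13, SE 0.31 and 0.09, SE 0.32 on the log2 scale), and both values were smaller than their standard errors.

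For the transporter SLC6A13 the lowest, median and highest levels were 4.79, 7.19 and 19.9 CPM in VEG-NBW, 5.14, 10.4 and 15.0 CPM in VEG-IUGR, 5.30, 8.44 and 19.9 CPM in MILK-NBW, and 5.75, 7.22 and 9.90 CPM in MILK-IUGR. Its MILK-IUGR libraries lay in a narrow band (SD 1.26 CPM, against 3.76 to 4.94 CPM in the other groups). The difference of MILK-IUGR from MILK-NBW was -0.47 (SE 0.26, log2, unadjusted p = 0.0844, edgeR adjusted p = 0.782). It ran from -0.58 to -0.28 when 1 library was left out, with the smaller size without piglet 234 (-0.28, SE 0.25, unadjusted p = 0.271). ALDH1A2 had a level of 8.95 ± 3.07 CPM (SD, n = 33) with a range of 4.14 to 16.8 CPM, and group medians of 8.14 CPM in VEG-NBW, 9.86 CPM in VEG-IUGR, 8.86 CPM in MILK-NBW and 7.51 CPM in MILK-IUGR.

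Of the 10 genes, FOXC1 had the largest share of its variance between the groups. Its lowest, median and highest levels were 4.12, 5.57 and 10.5 CPM in VEG-NBW, 4.29, 6.14 and 8.29 CPM in VEG-IUGR, 4.61, 7.10 and 8.52 CPM in MILK-NBW, and 3.89, 4.68 and 6.80 CPM in MILK-IUGR. Over all pairings of a MILK-IUGR with a MILK-NBW library, the MILK-IUGR library was the lower in 91.7%, and the ranges overlapped. The fitted difference was -0.46 (SE 0.16, log2, 95% interval -0.78 to -0.14), with an unadjusted p of 0.00563 in edgeR and an adjusted p of 0.782 over all genes. A two-sided exact permutation test of the mean log2 CPM of these 2 groups gave an unadjusted p of 0.00263. The permutation test was run for each of the 10 genes in the 4 contrasts between groups, and this p was the smallest. It used the same libraries and left sex out, so it is not a separate result. The difference did not pass the correction for all genes tested. With all 36 libraries it was -0.36 (SE 0.31), and leaving out 1 library at a time it ran from -0.53 to -0.39, with unadjusted p from 0.00126 to 0.0228. The levels behind these values were 67 to 171 counts per library.

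**Figure D2:**
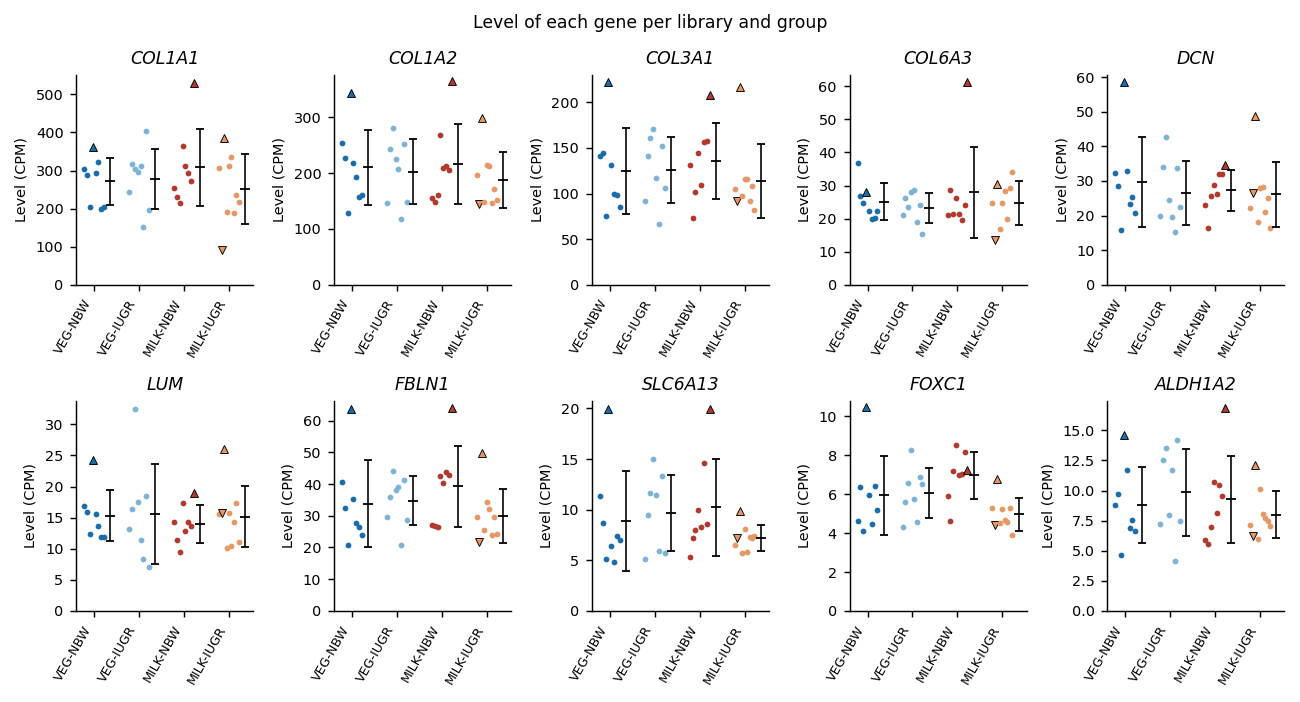
Level of each of the 10 genes (y axis, CPM, from 0) in every one of the 33 libraries by group (x axis), with the mean and SD of the group in black. Upward triangles mark piglets 214, 216 and 234, the highest summed library of their groups, and the downward triangle marks piglet 207, whose COL1A1 level was 91.6 CPM.

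No gene of the 10 was called in any of the 8 comparisons, which were diet, birth weight, their interaction, 4 contrasts between groups, and sex. The test was edgeR's quasi-likelihood test with sex as a covariate, with Benjamini-Hochberg adjustment over 15559 genes and a threshold of 0.05, and the 10 genes all passed the filter on low counts. Over all genes it called 0% in each comparison of diets, weights or groups and 0.161% (25 genes) for sex, so 0 of 10 is also what the background gives. At an unadjusted p under 0.05 the background was 4.29% of genes for diet, 2.21% for birth weight, 6.07% for the interaction and 2.94% for sex. It was 6.7% for MILK-NBW against VEG-NBW, 3.92% for MILK-IUGR against VEG-IUGR, 2.37% for VEG-IUGR against VEG-NBW and 6.27% for MILK-IUGR against MILK-NBW. Of the 10 genes, only FOXC1 was under that limit in the 33 libraries, for MILK-IUGR against MILK-NBW and for the interaction (-0.50, SE 0.22, log2, unadjusted p = 0.0323), 1 of 10 in each beside 6.27% and 6.07% of all genes. DESeq2 and limma called none of the 10 genes in any comparison either.

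The fitted values give the size of difference that the data leave room for. For diet (MILK minus VEG) the 10 genes ran from -0.13 for ALDH1A2 to 0.12 for COL6A3 on the log2 scale, with 95% intervals that all held 0 and reached from -0.50 to 0.39. For birth weight (IUGR minus NBW) they ran from -0.22 for FOXC1 to 0.07 for LUM, with intervals that all held 0 and reached from -0.55 to 0.39. The interaction, which has less precision, ran from -0.61 for SLC6A13 to 0.13 for DCN, with intervals between -1.37 and 0.76.

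The signs ran together, as they do for genes that rise and fall in the same libraries, so 10 signs are not 10 independent results. The median of the 10 genes was -0.04 for diet beside -0.01 over all genes tested, -0.12 for birth weight beside -0.00, and -0.28 for the interaction beside 0.00 (log2). Against MILK-NBW, 9 of the 10 genes were lower in MILK-IUGR, with a median of -0.20 beside -0.00 over all genes, and against VEG-IUGR 9 were lower in MILK-IUGR with a median of -0.14. MILK-NBW against VEG-NBW had 8 genes higher with a median of 0.13, and VEG-IUGR against VEG-NBW had 7 higher with a median of 0.03. These contrasts share groups of piglets. With all 36 libraries the majority sign turned for VEG-IUGR against VEG-NBW, with 4 genes higher and 6 lower, and diet had 5 higher and 5 lower, against 2 higher and 8 lower in the 33 libraries. For sex (male minus female), all 10 values were above 0 in the 33 libraries, with a median of 0.11 beside 0.01 over all genes, an upper value of 0.23 (ALDH1A2, SE 0.16) and no interval without 0, and with all 36 libraries 9 of the 10 were above 0.

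**Figure D3:**
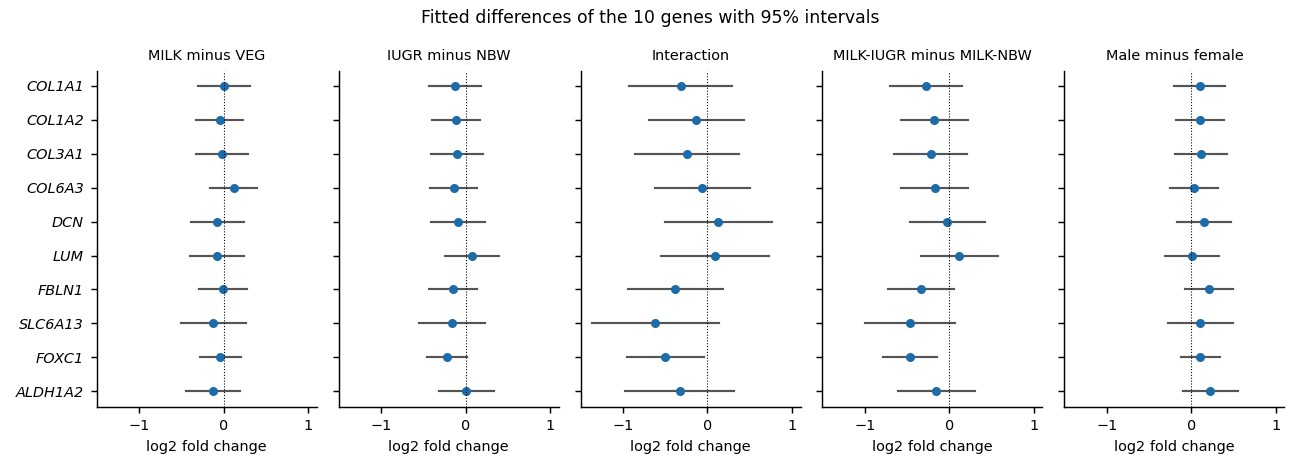
Fitted difference of each gene (x axis, log2 fold change, points) with its 95% interval (lines) for diet, birth weight, their interaction, MILK-IUGR minus MILK-NBW, and sex, in 33 libraries. The intervals hold 0 except for FOXC1 in the interaction and in MILK-IUGR minus MILK-NBW, where the adjusted p-values were 0.793 and 0.782.

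The fibroblast genes varied more between piglets than most genes. The biological coefficient of variation that edgeR estimated within groups and sexes was 20.6% for FOXC1 and between 26.9% (FBLN1) and 35.8% (SLC6A13) for the other 9, against a median of 13.8% over all genes. From 72.3% to 91.9% of the genes tested had a lower value than the member concerned. Counting error was estimated at 0.187% of the variance of log2 CPM for COL1A1 and at no more than 5.62% for the other genes, except FOXC1 at 16.3%. The 4 groups accounted for 1.01% (LUM) to 10.3% (FBLN1) of that variance in 9 genes and for 25.3% in FOXC1, beside a median of 7.79% over all genes tested, and 2.69% of genes had a larger group share than FOXC1.

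The 10 genes rose and fell together across libraries. Of the 45 pairs, 43 were correlated in log2 CPM over the 33 libraries (permutation test with 100000 permutations, two-sided, Benjamini-Hochberg adjusted over 45 pairs, threshold 0.05), with a median Pearson r of 0.72 and a median Spearman rho of 0.72. The share of all gene pairs that pass the same test is not given here, so this count has no background beside it. The closest pair was COL1A2 with FBLN1 (r = 0.94, rho = 0.89, permutation p = 1e-05 for each, the smallest that these permutations can give, and r = 0.92 without the 2 libraries farthest from the median of COL1A2). COL1A2 with COL3A1 had r = 0.91 and rho = 0.89, and DCN with its neighbour LUM had r = 0.76 and rho = 0.73 (permutation p = 1e-05 for each value). SLC6A13 with ALDH1A2 had r = 0.76 and rho = 0.78 (permutation p = 1e-05 for each).

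COL6A3 was the least tied to the rest. It had r = 0.17 with FOXC1 (rho = 0.17, permutation p = 0.342 and 0.349) and r = 0.27 with DCN (rho = 0.28, permutation p = 0.125 and 0.119), the 2 pairs that did not pass, and its closest partner was COL1A1 (r = 0.69, rho = 0.55, permutation p = 5e-05 and 8e-04). Its r with the mean of the other 9 genes was 0.53, against 0.68 for FOXC1, 0.71 for LUM and 0.97 for COL1A2.

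The relation between the genes held inside the groups. In each of the 4 groups all 45 pairs had r above 0, with a median r of 0.83 in VEG-NBW, 0.78 in VEG-IUGR, 0.76 in MILK-NBW and 0.73 in MILK-IUGR, and after removing group and sex 43 of the 45 pairs passed again. Fewer pairs passed without the highest libraries. Without piglets 214, 216 and 234, 37 of the 45 pairs passed and the median r was 0.61. With all 36 libraries 29 pairs passed by Pearson r and 42 by Spearman rho, and COL6A3 with LUM then had r = -0.16, with 5 of the genes at 0 in piglet 210. COL1A1 with COL1A2 had r = 0.84 with piglet 207 and 0.91 without it.

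**Figure D4:**
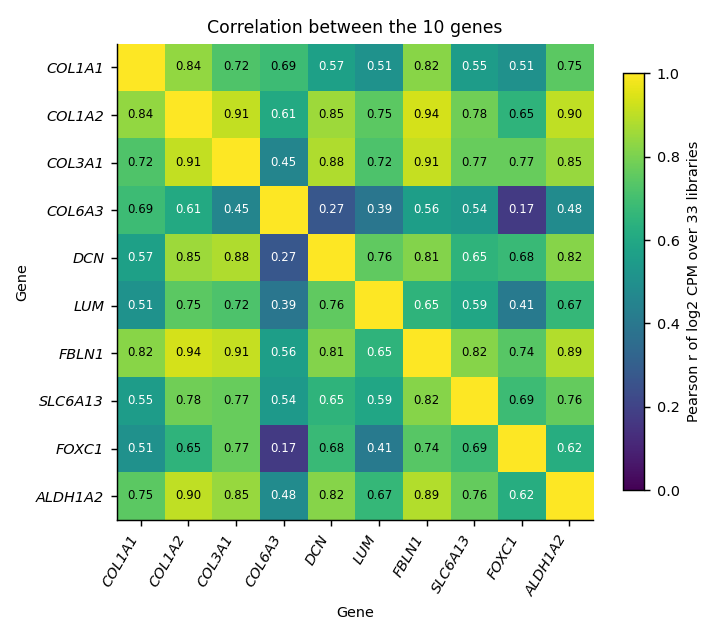
Pearson r of log2 CPM over 33 libraries for each pair of the 10 genes (both axes), with the value printed in each cell and colour from 0 to 1. Values run from 0.17 for COL6A3 with FOXC1 to 0.94 for COL1A2 with FBLN1.

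To describe what varied with the fibroblast genes, the 10 genes were averaged per library after each was put on a standard scale in log2 CPM. Of the other 15549 genes tested, 365 (2.35%) had r above 0.5 with this average over the 33 libraries and 35 had r above 0.8, with a median r of -0.02. The libraries share their scaling, and no p is given for a score over these genes. The 10 genes with a symbol that were closest to it were PCOLCE (r = 0.92), which promotes the trimming of procollagen, AEBP1 (0.91), CPXM1 (0.90), the elastic fibre protein FBLN5 (0.90), CYP1B1 (0.89), ISLR (0.88), MPZL2 (0.87), the collagen crosslinking enzyme LOX (0.86), MRGPRF (0.85) and ADAMTS12 (0.85). The lowest values belonged to GPR83 (-0.64), DDX46 (-0.59) and ZNF287 (-0.59). None of these 13 genes had an adjusted p under 0.05 for diet, birth weight or the interaction. PCOLCE differed by -0.16 between the diets (SE 0.14, log2) and by -0.10 between the birth weights (SE 0.14).

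A further list of meningeal markers (solute carriers, transcription factors, BMP ligands and others) followed the 10 genes. Its 26 tested genes had a median r of 0.68 with the average of the 10 genes, and 17 had r above 0.5. As a list average, r was 0.90 and rho 0.88 over the 33 libraries, r was 0.86 without the 2 libraries farthest from the median of the list, and r was 0.93 in VEG-NBW, 0.84 in VEG-IUGR, 0.97 in MILK-NBW and 0.90 in MILK-IUGR. The summed level of this list ran from 300.3 to 696 CPM. Of its defining markers, PTGDS had no count in any of the 33 libraries under the matched identifier and ITIH2 had at most 7 counts (both chosen after their values were seen).

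Matrix proteoglycans and glycoproteins also followed, with a median r of 0.63 and 21 of 28 genes above 0.5. Other collagen chains did so in part, with 8 of 22 above 0.5 and a median r of 0.34. The genes of collagen synthesis and crosslinking, which many cells use, had a median r of 0.12 with 6 of 23 above 0.5. General fibroblast markers had 4 of 13 above 0.5. As a list average they had r = 0.62 and rho = 0.50, and r = 0.42 without the 2 libraries farthest from the median of the list. Within groups this r was 0.93 in VEG-NBW, 0.13 in VEG-IUGR, 0.58 in MILK-NBW and 0.60 in MILK-IUGR. Genes of the TGF beta pathway had 4 of 17 above 0.5, retinoic acid pathway genes 3 of 17, and GABA, taurine and creatine transporters of the SLC6 family 0 of 5.

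Markers of other cells moved with the 10 genes to different degrees. The mural cell list (smooth muscle and pericytes, 12 genes) had r = 0.60 and rho = 0.62 with the average of the 10 genes, and its sum ran from 189 to 357 CPM. Of its 12 genes, 2 had r above 0.5 with that average. Within groups the r of the mural cell list was 0.66 in VEG-NBW, 0.82 in VEG-IUGR, 0.29 in MILK-NBW and 0.85 in MILK-IUGR. The red blood cell list (4 genes, 1.98 to 70.3 CPM) had r = 0.47 and rho = 0.55, the skeletal muscle and bone list (4 genes) r = 0.44 and rho = 0.40, and the endothelium list (10 genes) r = 0.29 and rho = 0.30. The choroid plexus list (8 genes) ran from 27.9 to 1699 CPM and had r = 0.00 and rho = 0.05. Granule neuron markers had r = -0.33 and rho = -0.20, and within groups r was -0.71 in VEG-NBW, 0.16 in VEG-IUGR, -0.76 in MILK-NBW and -0.03 in MILK-IUGR, so the pooled value did not hold in each group. Within groups r ran from 0.28 to 0.69 for red blood cells and from -0.42 to 0.42 for the choroid plexus. Purkinje cell markers had r = 0.32 and rho = 0.24, microglia and macrophages 0.34 and 0.20, astrocytes and Bergmann glia 0.18 and 0.04, and oligodendrocytes -0.06 and -0.08. The share of reads not assigned had r = -0.39 and rho = -0.21, the total count r = -0.27 and rho = -0.36, and the number of genes with a count r = -0.43 and rho = -0.31. The part of these other cells and of the library measures in the level of the 10 genes was not tested.

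**Figure D5:**
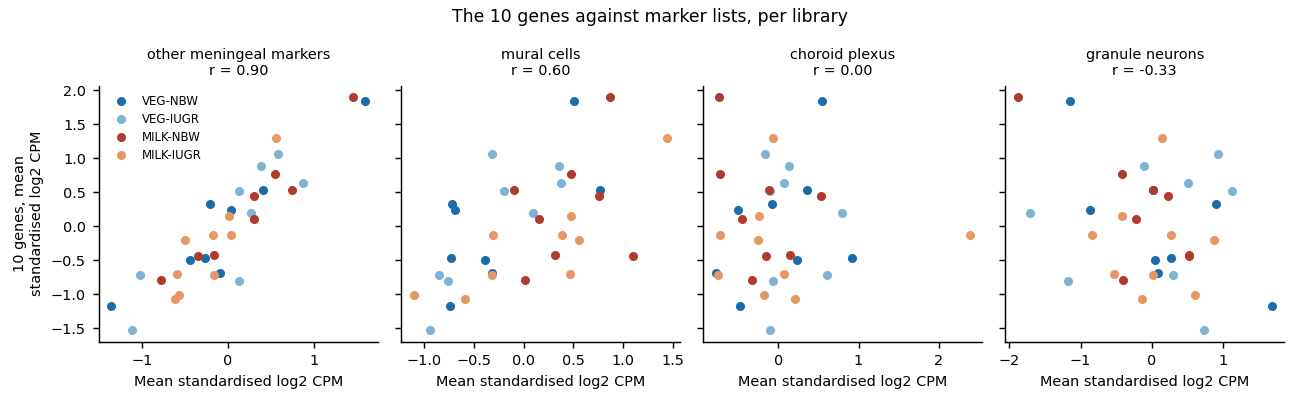
Average of the 10 genes (y axis, mean standardised log2 CPM) against the same average of 4 marker lists (x axes) in 33 libraries coloured by group. The further meningeal markers rise with the 10 genes (r = 0.90), mural cells less so (r = 0.60), the choroid plexus does not (r = 0.00), and granule neurons have r = -0.33.

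No gene of the lists around the 10 genes was called either. In 18 lists with 229 tested genes, 0 had an adjusted p under 0.05 in edgeR in any of the 8 comparisons, and the values that follow had unadjusted p under 0.05 except those of RARG and TGFB1. Among other collagen chains the smallest unadjusted p for diet belonged to the basement membrane chain COL4A1 (0.16, SE 0.08, log2, higher in MILK) and for birth weight to COL8A1 (-0.40, SE 0.19), with 1 of 22 genes under 0.05 in each, beside 4.29% of all genes for diet and 2.21% for birth weight. Of the genes of collagen synthesis, the prolyl hydroxylase subunit P4HA2 had 0.28 for diet (SE 0.12) and 0.29 for birth weight (SE 0.12), again 1 of 23 in each, beside the same shares. THBS2, a matricellular protein, had the smallest p for birth weight among 28 matrix genes (-0.38, SE 0.13) and for MILK-IUGR against MILK-NBW (-0.59, SE 0.18), where 2 of 28 were under 0.05 beside 6.27% of all genes. Of the 26 further meningeal markers, 2 were under 0.05 for MILK-IUGR against MILK-NBW, both lower, beside 6.27% of all genes, and 3 for MILK-IUGR against VEG-IUGR, all lower, beside 3.92%. In the first of these comparisons the list had 22 genes below 0, beside 51.4% of all genes, with a median of -0.27 beside -0.00 over all genes. The average of this list had r = 0.90 with that of the 10 genes over the same libraries. Its signs are thus not independent of those of the 10 genes. DPP4 had the smallest p of that list for birth weight (-0.68, SE 0.21). In the retinoic acid pathway, the receptor gene RARG had -0.18 for birth weight (SE 0.10) and 0.15 for diet (SE 0.10), and in the TGF beta pathway TGFB1 had -0.17 for birth weight (SE 0.09).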

How the data were processed

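The values deposited by the authors are raw counts on Ensembl genes, 1 table per piglet, each with 5 summary lines for reads not assigned, which were kept out of library sizes. The submitters' processing notes name Trim Galore, HISAT2, HTSeq, DESeq2 and the build Sscrofa11.1, and the annotation release and strand setting are not given in the sources used here. The test was edgeR 4.0.16 under R 4.3.3 (quasi-likelihood, TMM scaling, filterByExpr at 10 counts), and its terms were diet, birth weight and sex as terms, or the 4 group means and sex. CPM used TMM library sizes, and log2 CPM a prior count of 2. Each piglet is 1 library, and no litter is in the labels. The members and the 18 other lists were chosen with earlier results of these data known. Named genes were the members, the 10 closest and 3 farthest genes by r, and, per list, genes called or at most 2 with the smallest p per comparison. Symbols matched 15029 of 31907 identifiers. Alternatives used DESeq2 1.42.0 and limma 3.58.1. The scripts were checked on simulated data.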

Additional observations from a re-analysis of the deposited data

Results flagged for a closer look

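A library was looked at again where its gap to the nearest library of its group, divided by the range of the group, exceeded Dixon's 95% critical value (0.526 for 8 libraries, 0.493 for 9). The 10 genes, their sum and the ratio of COL1A1 to COL1A2 counts gave 48 such checks in the 4 groups, and 19 were past the limit. Chance gives about 1 in 20 where values are normally distributed. The checks used CPM without a log scale, so that rate need not hold here. The genes are correlated, so the 19 are not separate events, and 16 of the 19 belong to 3 piglets.

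Piglet 216 (VEG-NBW) stood above its group for COL3A1 (223 CPM, the others 74.9 to 145 CPM), DCN (58.6 CPM), LUM (24.2 CPM), FBLN1 (63.6 CPM), SLC6A13 (19.9 CPM) and FOXC1 (10.5 CPM, the others 4.12 to 6.44 CPM). Piglet 214 (MILK-IUGR) did so for COL1A2 (299 CPM), COL3A1 (217 CPM, the others 81.8 to 116 CPM), DCN (48.7 CPM), LUM (26.1 CPM), FBLN1 (49.8 CPM) and FOXC1 (6.80 CPM). Piglet 234 (MILK-NBW) did so for COL1A1 (530.3 CPM), COL6A3 (61.2 CPM, the others 19.7 to 28.7 CPM), FBLN1 (64.0 CPM) and ALDH1A2 (16.8 CPM). Their summed level was not past the limit in any group.

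Piglet 200 (VEG-NBW) was high for COL6A3 (36.9 CPM) and piglet 204 (VEG-IUGR) for LUM (32.5 CPM, the others 7.09 to 18.4 CPM). Piglet 207 (MILK-IUGR) was low for the ratio of COL1A1 to COL1A2 counts (0.631, the others 1.28 to 1.59).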

How the results depend on the processing

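No gene of the 10 was called under any alternative: all 36 libraries, DESeq2 with and without sex, DESeq2 size factors in edgeR, no filter on low counts, edgeR fitted without sex, limma voom with quality weights, or leaving out each of 33 libraries. The smallest adjusted p of a member was 0.387 over all of these. A fitted value was read as turned where its sign changed and it moved by more than its standard error. Of 580 values from other settings, 577 kept their sign or moved by less, and of 2640 values without 1 library, 2635 did. The exceptions were COL6A3 with quality weights (0.0306 for birth weight, 0.0795 for MILK-IUGR against MILK-NBW) and FBLN1 for birth weight with all 36 libraries (7.93e-05). Without 1 library, COL6A3 ran from -0.11 to 0.25 for MILK-NBW against VEG-NBW and from -0.24 to 0.0820 for MILK-IUGR against MILK-NBW (the turned values without piglet 234), DCN from -0.25 to 0.0827 for MILK-NBW against VEG-NBW (without piglet 216), and LUM from -0.17 to 0.21 for MILK-IUGR against VEG-IUGR and from -0.24 to 0.16 for VEG-IUGR against VEG-NBW (without piglet 204). Without piglet 216, FOXC1 for MILK-NBW against VEG-NBW was 0.39 (SE 0.14, edgeR adjusted p = 0.387). The settings without piglets 207 and 214, 216 and 234 were chosen after seeing the data. No paired analysis was possible because no number in the labels pairs piglets across groups. Depth limits FOXC1 most, with 67 counts in its lowest library.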

Other observations

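Mural cell markers, which moved with the fibroblast genes across libraries, were the list with the most genes at an unadjusted p under 0.05 for diet, 6 of 12, all higher in MILK, beside 4.29% of all genes. The smooth muscle genes ACTG2 (1.15, SE 0.30, log2) and TAGLN (0.49, SE 0.13) had the smallest p, each with an edgeR adjusted p of 0.983, so neither was called. The 10 fibroblast genes had a median of -0.04 in the same comparison.

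The choroid plexus list had a wide range. Its summed level, 27.9 to 1699 CPM, had group medians of 106 CPM in VEG-NBW, 103 CPM in VEG-IUGR, 93.6 CPM in MILK-NBW and 119 CPM in MILK-IUGR, and the highest library was in MILK-IUGR. The water channel AQP1 had an interaction of 3.48 (SE 1.11, log2) and CLIC6 of 4.44 (SE 1.49), both with an edgeR adjusted p of 0.793. These were the 2 genes with the smallest p, and the list was split, with 6 of 8 interaction values above 0 and 2 below. At an unadjusted edgeR p under 0.05, 3 of the 8 were above 0 and 2 below, beside 6.07% of all genes. Of the red blood cell list, HBB (beta globin) differed by -1.09 between MILK and VEG (SE 0.34, edgeR adjusted p = 0.983).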
